A study of Mus musculus with 4 samples.

Results

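Keratins are the intermediate filament proteins of epithelial cells, and the 53 protein-coding mouse keratin genes of the count table (of 54532 genes in all) are described here over 4 libraries of thymic epithelium. A gene was included when its symbol was Krt followed by a digit and its biotype was protein-coding. The rule itself uses no expression value. By the textbook grouping, 6 are keratins of simple epithelia, 22 of stratified epithelia, 8 of the inner root sheath and companion layer of hair follicles and 16 of hair, and Krt222 is a keratin-like gene. All 53 had at least 3 reads in both mTEC libraries, and 32 had at least 200 reads summed over the 4 libraries.

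The libraries came from cortical cells (cTEC, Ly51+ UEA1−) and medullary cells (mTEC, Ly51− UEA1+) of thymus from C57BL/6 SCD1 knockout mice and from control littermates, which the labels call WT. SCD1 is an enzyme that puts a double bond into saturated fatty acids. Each combination of population and genotype has 1 library, so a ratio between 2 libraries has no replicate check and no test, and its interval (95%) covers counting error only. A weak test of each factor over all 4 libraries is given after the counts. The sources used here do not give the mice's age, the extent of the deletion or how many mice a library holds.

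Keratin filaments are built from pairs of an acidic type I chain and a basic type II chain, and most epithelia are known by the pair they make. Krt8 and Krt18 form the pair of simple epithelia, Krt5 and Krt14 that of the basal layer of stratified epithelia, Krt1 and Krt10 that of the upper epidermis, and Krt4 and Krt13 that of the oesophagus and other mucosae. In the thymus, antibodies to keratins 8, 5 and 14 have long been used to tell cortex from medulla, and medullary cells also express genes of many other tissues, those of skin among them.

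Whole-series checks came first. Between 15740383 and 18151725 reads per library were assigned to genes. Scd1 fell from 1310 control to 278 knockout reads in mTEC and from 325 to 73 in cTEC. The medullary regulator Aire had 21598 and 22186 reads in control and knockout mTEC and 575 and 590 in cTEC, so that its level in cTEC was 2.97% and 2.67% of that in mTEC. Of 9 entries (8 symbols) in the list of mTEC markers, 8 stood higher in mTEC in each genotype. The exception was Trp63, with 4671 and 4205 reads in mTEC against 8351 and 9696 in cTEC. Of the Ccl21a entries, 1 was near level in knockout (3504 reads in mTEC and 3447 in cTEC). The thymoproteasome gene Psmb11, a cortical marker, had 706 and 1026 reads in mTEC and 8462 and 12201 in cTEC. Markers of other cells were present in all 4 libraries: summed thymocyte markers (9 genes, none at 0) stood at 214 to 387 CPM (reads scaled to 1000000 per library). Myeloid markers (6 genes, none at 0) summed to 303 and 341 CPM for mTEC against 89.5 and 106 CPM for cTEC. Lyz2 was the largest part of each sum, at 223 and 256 CPM in mTEC against 40.5 and 48.1 CPM in cTEC. While 5 of the 6 stood higher in mTEC, Cd68 stood lower, at 14.6 and 16.8 CPM against 24.7 and 26.4 CPM. Fibroblast markers (5 genes, none at 0) summed to 110.4 to 110.6 CPM for mTEC against 321 to 327 CPM for cTEC. Dcn set that sum, at 71.0 CPM in both mTEC libraries against 297 and 301 CPM in cTEC. Of the 5 genes, 2 stood higher in mTEC in both genotypes, Col1a1 and Pdgfra. Col1a1 had 29.7 and 28.3 CPM in control and knockout mTEC against 6.94 and 6.73 CPM in cTEC.

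The first question was how much keratin RNA each population carried and of which kind. Keratin genes took 1.25% and 1.28% of assigned reads in control and knockout mTEC and 1.15% and 1.14% in cTEC. Per length (TPM, reads per base of gene scaled to 1000000 over all genes) the 53 genes summed to 18535 and 18588 in control and knockout mTEC, and to 18803 and 18702 in the respective cTEC libraries. The summed level was therefore close in all 4 libraries, while its make-up was not.

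Simple keratins summed to 7179 and 7604 TPM in control and knockout mTEC and to 12443 and 13190 in cTEC, or 38.7%, 40.9%, 66.2% and 70.5% of keratin TPM. Stratified keratins summed to 11189 and 10814 TPM in mTEC and to 6322 and 5484 in cTEC, or 60.4%, 58.2%, 33.6% and 29.3%. Thus stratified keratins made up most of the keratin RNA in both mTEC libraries and simple keratins most of it in both cTEC libraries. Inner root sheath keratins were minor, at 69.3 and 75.9 TPM in mTEC and 5.65 and 4.66 in cTEC. Hair keratins summed to 86.6 and 81.8 TPM in mTEC and to 30.6 and 20.98 in cTEC.

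**Figure D1:**
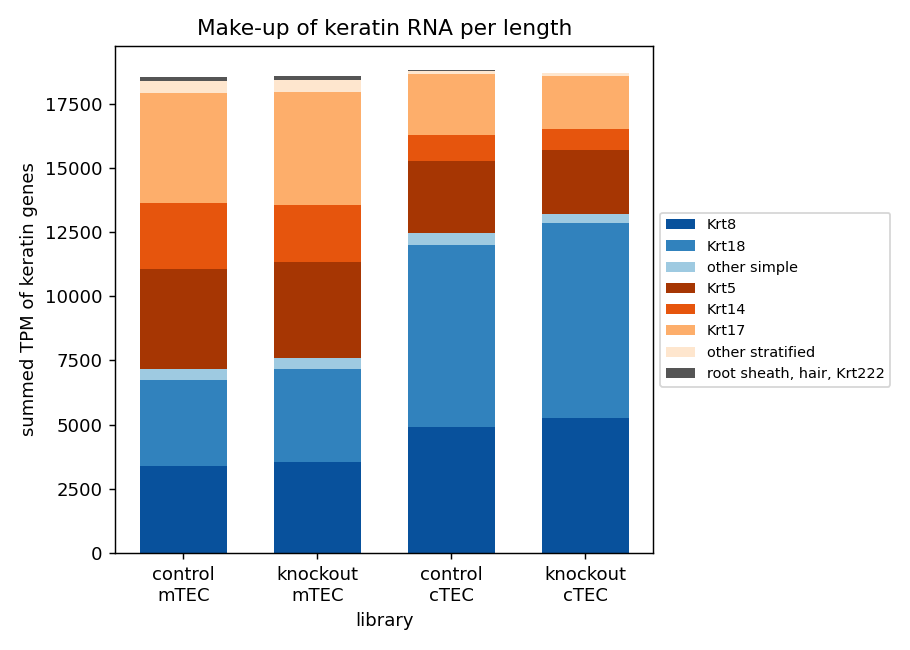
Summed TPM of keratin genes in each of the 4 libraries (bars, 1 library each, no error), stacked by gene or group. The totals lie between 18535 and 18803 TPM, with blue simple keratins the larger part in cTEC and orange stratified keratins the larger part in mTEC.

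A handful of genes carried nearly all of this RNA. Krt8, Krt18, Krt5, Krt14 and Krt17 together made up 94.3% and 94.2% of keratin TPM in control and knockout mTEC and 96.9% and 97.6% in cTEC. By TPM, Krt18 ranked 7 among all genes in both cTEC libraries and Krt17 ranked 16 in both mTEC libraries. The other 48 keratin genes thus shared under 6% of keratin TPM in each library.

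Simple keratins are described first, with values in the order control mTEC, knockout mTEC, control cTEC, knockout cTEC throughout. Krt18 (ENSMUSG00000023043, type I, mm10 chromosome 15, 102028180 to 102032027) stood at 3349, 3613, 7105 and 7603 TPM. Its mTEC to cTEC log2 ratio was −1.08 (−1.10 to −1.06) in control and −1.05 (−1.07 to −1.03) in knockout, 2.12-fold and 2.07-fold lower in mTEC. Scaled by total count alone, the log2 ratios were −0.99 and −0.96, short of the 2-fold limit used here to call a difference. Both cTEC libraries lay above both mTEC libraries.

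Krt8 (ENSMUSG00000049382, type II, chromosome 15, 101996698 to 102004482), the partner of Krt18, stood at 3401, 3565, 4902 and 5260 TPM. Its log2 ratios between populations were −0.52 (−0.54 to −0.50) and −0.54 (−0.55 to −0.52), also short of that limit. Of the 50-base windows of its longest annotated transcript, 29.7% also occur in another gene, mostly in the pseudogene Krt8-ps. That pseudogene had 54, 63, 47 and 59 reads, against 39762 to 63885 for Krt8.

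Krt19, a type I keratin without a fixed partner, was the other gene of this class called lower in control mTEC. It stood at 79.9, 80.9, 178 and 114 TPM, with log2 ratios between populations of −1.15 (−1.27 to −1.04) in control and −0.47 (−0.59 to −0.35) in knockout. The mTEC libraries were alike, and control cTEC stood highest of the 4.

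Krt7, a type II keratin of ducts and glands, was nearly level, with 9515, 9697, 9002 and 8643 reads. Its log2 ratio between populations was −0.08 in control and 0.16 in knockout, and the first turned to 0.01 when libraries were scaled by total count alone. Its level per length, 226, 218, 239 and 198 TPM, rests on a deposited gene length of 7049 bases.

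Krt20 and Krt23 went the other way. Krt20, a type I keratin of gut lining and urothelium, stood at 72.7, 67.3, 3.01 and 2.76 TPM (836, 820, 31 and 33 reads), with log2 ratios of 4.57 (4.08 to 5.16) in control and 4.61 (4.13 to 5.18) in knockout. Krt23 stood at 50.7, 61.0, 16.1 and 12.3 TPM, with log2 ratios of 1.65 (1.38 to 1.94) and 2.34 (2.05 to 2.64). The 6 simple keratins thus held genes far higher in mTEC beside genes lower in it. As reads summed over the class, simple keratins were 1.62-fold lower in control mTEC and 1.60-fold lower in knockout mTEC than in the matching cTEC library.

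Among stratified keratins, the basal pair was abundant in both populations. Krt5 (ENSMUSG00000061527, type II, chromosome 15, 101707070 to 101712898) stood at 3900, 3710, 2817 and 2495 TPM, with log2 ratios of 0.47 (0.45 to 0.49) and 0.60 (0.58 to 0.62) between populations. Krt14 (ENSMUSG00000045545, type I, chromosome 11, 100203162 to 100207548) stood at 2532, 2224, 1005 and 843 TPM, 2.53-fold and 2.68-fold higher in mTEC. For both genes the mTEC libraries lay above the cTEC libraries, and only Krt14 passed the 2-fold limit.

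Krt17 (ENSMUSG00000035557, type I, chromosome 11, 100256217 to 100261029), known from hair follicles and wounded or stressed epidermis, was the most abundant keratin per length in mTEC. It stood at 4305, 4397, 2387 and 2047 TPM, with log2 ratios of 0.85 (0.83 to 0.88) in control and 1.13 (1.10 to 1.15) in knockout. The knockout pair passed the 2-fold limit and the control pair did not. Krt16, another stress keratin beside it on chromosome 11, stood at 96.1, 96.7, 15.7 and 11.5 TPM, with log2 ratios of 2.62 (2.35 to 2.90) and 3.09 (2.81 to 3.39). Of the Krt16 windows, 37.6% occur elsewhere (25.2% of the gene's windows in Gm11597 alone), so its counts are uncertain. Summed with Krt14 and Krt17, the log2 ratios between populations were 1.04 and 1.24. That sum leaves out Gm11597 and is set by Krt14 and Krt17, as Krt16 had 898 of its 67340 reads in control mTEC.

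The upper-layer and mucosal keratins were low in cTEC and clearly present in mTEC. Krt10 stood at 63.8, 74.1, 14.6 and 17.2 TPM and its epidermal partner Krt1 at 10.4, 9.35, 1.87 and 0.767. Krt10 was 4.36-fold and 4.39-fold higher in mTEC, and Krt1 5.51-fold and 12.1-fold. Of the mucosal pair, Krt13 had 281, 297, 20 and 33 reads and log2 ratios of 3.62 and 3.15. Its partner Krt4 had 261, 269, 42 and 55 reads and log2 ratios of 2.46 and 2.28. In all 4 genes both mTEC libraries lay above both cTEC libraries.

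Krt77 (ENSMUSG00000067594, chromosome 15, 101858731 to 101869705), a type II keratin known from sweat gland ducts, had 1076, 1201, 20 and 29 reads, or 61.5, 64.8, 1.28 and 1.60 TPM. Its log2 ratios were 5.56 (4.96 to 6.31) in control and 5.34 (4.84 to 5.95) in knockout. Krt77 in cTEC was at 2.07% and 2.42% of its mTEC level in CPM, beside 2.97% and 2.67% for Aire in the same libraries. The part of medullary RNA in the cTEC libraries in such low values was not tested. In bulk libraries, moreover, fewer cells of a kind and less RNA per cell cannot be told apart.

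Krt9, the keratin of palm and sole skin, had 522, 631, 19 and 12 reads and log2 ratios of 4.59 (3.97 to 5.37) and 5.66 (4.90 to 6.67). Krt76, a keratin of the palate, had 327, 385, 17 and 12 reads, with log2 ratios of 4.07 (3.41 to 4.91) and 4.94 (4.18 to 5.97). Krt79, of the hair canal, had 262, 314, 20 and 26 reads (log2 ratios 3.52 and 3.57). All 3 lay an order of magnitude or more above their cTEC levels in both genotypes.

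Krt2, made late in epidermal differentiation, had 78 and 67 reads in mTEC and 0 in both cTEC libraries, at least 23.3-fold and 22.3-fold higher in mTEC against a floor of 3 counts per library. Of the less studied members, Krt42 (107, 138, 8 and 8 reads), Krt24 (97, 114, 14 and 3 reads) and Krt78 (245, 328, 80 and 77 reads) were called higher in mTEC in both genotypes. Krt80 had 318, 417, 206 and 142 reads, with log2 ratios of 0.47 (0.21 to 0.73) in control and 1.55 (1.27 to 1.84) in knockout, and was called in the knockout pair.

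Not every stratified keratin followed this order. Krt15, known from basal cells and the hair bulge, had 375, 424, 351 and 378 reads, with log2 ratios of −0.06 (−0.28 to 0.15) and 0.16 (−0.04 to 0.37), and the control value turned to 0.03 under scaling by total count. Krt6a, a stress keratin of type II, had 211, 203, 217 and 219 reads, with log2 ratios of −0.20 (−0.48 to 0.08) and −0.11 (−0.40 to 0.17). Krt6a shares 57.5% of its windows with other genes, chiefly Krt6b, so reads could be split between them. Krt6b itself had 70, 91, 25 and 13 reads, and the 2 genes together had 281, 294, 242 and 232.

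The 4 stratified keratins with under 200 reads in all (Krt2, Krt6b, Krt12 and Krt90) had 43 to 78 reads in control mTEC and 0 to 25 in control cTEC. Krt12, the corneal keratin, had 51, 40, 2 and 7 reads, and 42.0% of its windows are also part of an antisense gene at the same locus. Krt90 had 43, 57, 6 and 2 reads. Summed over the class without Krt5, Krt14 and Krt17, stratified keratins were 4.07-fold higher in control mTEC and 5.22-fold higher in knockout mTEC.

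Keratins of the hair follicle made up the third group. Krt71, a type II keratin of the inner root sheath, had 369, 405, 14 and 14 reads, or 28.3, 29.3, 1.20 and 1.03 TPM (log2 ratios 4.51 and 4.80). Krt73 (ENSMUSG00000063661, chromosome 15, 101793308 to 101802346), of the same sheath, had 214, 251, 2 and 3 reads, with log2 ratios of 6.27 (4.71 to 9.64) and 6.16 (4.82 to 8.67). Krt75, of the companion layer, had 173, 181, 55 and 50 reads (1.49, 1.05 to 1.96, and 1.84, 1.39 to 2.33). Of these, Krt75 was the one most easily measured in cTEC.

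The other 5 sheath keratins, Krt25, Krt26, Krt27, Krt28 and Krt72, had 10 to 82 reads in control mTEC, 7 to 97 in knockout mTEC and at most 6 in cTEC. Krt25 and Krt72 reached 50 reads over a pair, and both were called higher in mTEC in both genotypes. Summed over all 8 genes, inner root sheath keratins had 940, 1076, 83 and 78 reads, a 10.1-fold difference between populations in control and 13.7-fold in knockout.

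Hair keratins were more mixed. Krt84, a type II keratin of this class, had 249, 299, 48 and 51 reads (log2 ratios 2.21, 1.77 to 2.70, and 2.54, 2.12 to 3.01). Krt81, Krt83 and Krt86, hair cortex keratins that lie together on chromosome 15, had 137, 100, 20 and 15 reads, 85, 109, 3 and 5 reads, and 89, 79, 4 and 10 reads. Krt81 and Krt86 have 43.5% and 43.3% of their windows in other genes, chiefly each other. The 3 genes summed to 311, 288, 27 and 30 reads, a log2 ratio of 3.34 (2.80 to 3.99) in control and 3.24 (2.71 to 3.85) in knockout. Krt33b and Krt36 were also called higher in mTEC in both genotypes, and Krt82 in the knockout pair (24, 46, 1 and 7 reads), its control pair having too few reads to be called.

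Krt87 was an exception within its class, with 218, 233, 210 and 133 reads. Its log2 ratios between populations were −0.10 (−0.38 to 0.18) in control and 0.80 (0.49 to 1.12) in knockout. It lies 724 bases from Krt7 on chromosome 15, and other genes hold 36.9% of its windows. The 12 hair keratins under 200 reads in all had 6 to 89 reads in control mTEC and 0 to 27 in control cTEC. Krt222, the keratin-like gene, had 217, 258, 26 and 39 reads (log2 ratios 2.88 and 2.71).

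**Figure D2:**
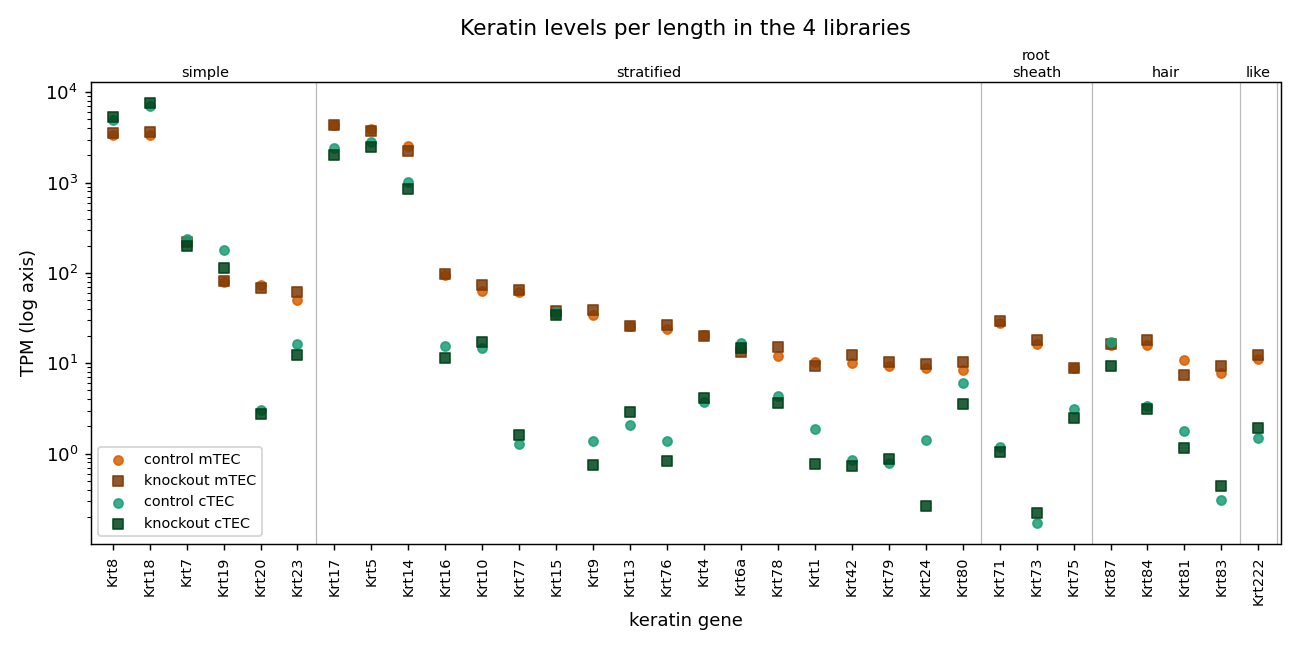
TPM (log axis) of the 32 keratin genes with at least 200 reads over the 4 libraries, 1 point per library, grouped by class. Krt8, Krt18, Krt17, Krt5 and Krt14 stand between 843 and 7603 TPM, and most of the rest have orange mTEC points above green cTEC points.

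Neighbours in the order of levels were often not separable. In control mTEC, the counting intervals of Krt8 and Krt18 overlapped (3401 and 3349 TPM), as did those of Krt19, Krt20 and Krt10 in turn. In both cTEC libraries, Krt6a, Krt23 and Krt16 overlapped in turn, at 16.8, 16.1 and 15.7 TPM in control cTEC and at 14.6, 12.3 and 11.5 TPM in knockout cTEC. Krt18, Krt8, Krt5, Krt17 and Krt14 stood in that order, without overlap, in both cTEC libraries. Counting intervals do not cover shared sequence, which is 29.7% of the windows for Krt8.

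Counted over the class as a whole, 40 of the 53 genes had at least 50 reads in the control pair and 41 in the knockout pair. A difference was called when it reached 2-fold with a counting interval that excluded equality. In control, 30 keratins were called higher in mTEC and 2 lower, beside 19.0% of the 15747 genes measured called higher and 8.53% lower. In knockout, 33 were called higher and 1 lower, beside 19.8% and 8.96% of 15962 genes. The 2 called lower in control were Krt18 and Krt19, and the 1 in knockout was Krt18. Scaled by total count, Krt19 was the 1 keratin called lower in control and none was in knockout, beside 7.20% and 7.56% of all genes measured. With a minimum of 200 reads, 18 and 20 keratins were called higher, beside 11.8% and 12.4%.

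The calls agreed largely between genotypes: 29 keratins were called higher in mTEC in both, of the 30 and of the 33. Krt17 and Krt80 were called in knockout alone, where their control ratios fell short of 2-fold. Krt12, Krt82 and Krt90 were called in 1 genotype because the other pair had under 50 reads. There Krt12 stood at 2.43 (1.34 to 3.91) in knockout, Krt82 at 3.87 (1.81 to 9.79) in control and Krt90 at 2.59 (1.45 to 4.21) in control. The difference between genotypes in these ratios was not tested. The median log2 ratio of the measured keratins was 2.53 in control and 2.69 in knockout, beside −0.06 and −0.08 over all genes measured. Of the 40 genes in control, 17 had under 25 reads in cTEC and so were measured through their mTEC reads, and the same number held in knockout. Among the 16 keratins with at least 50 reads in control cTEC, 6 were called higher in mTEC and 2 lower, and among the 18 in knockout cTEC 10 were called higher and 1 lower. All medians and counts therefore describe these genes and are no test of them.

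A fit with population and genotype as additive terms (edgeR quasi-likelihood test with Benjamini-Hochberg adjustment over 19415 genes, 1 residual degree of freedom) tested each factor over the 4 libraries. It takes departures from additivity as the error, which is not the spread between mice. Of 48 keratins fitted, 40 were higher in mTEC at an adjusted p under 0.05 and 3 lower (Krt8, Krt18 and Krt19), beside 34.3% and 30.8% of all genes. Krt7, Krt15, Krt6a, Krt87 and Krt88 did not pass. Between genotypes none was higher and 2 were lower, beside 0.603% and 0.551% of all genes. At an unadjusted p under 0.05 in the same edgeR test, 3 were higher and 4 lower, beside 4.04% and 3.57% of all genes. Krt14 had a log2 ratio of −0.19 (edgeR adjusted p = 0.038), with ratios below 0 in both populations. Krt19 had one of −0.31 (edgeR adjusted p = 0.0053), although its ratios in the 2 populations, 0.06 and −0.63, were unlike and the fit assumes 1 common value.

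**Figure D3:**
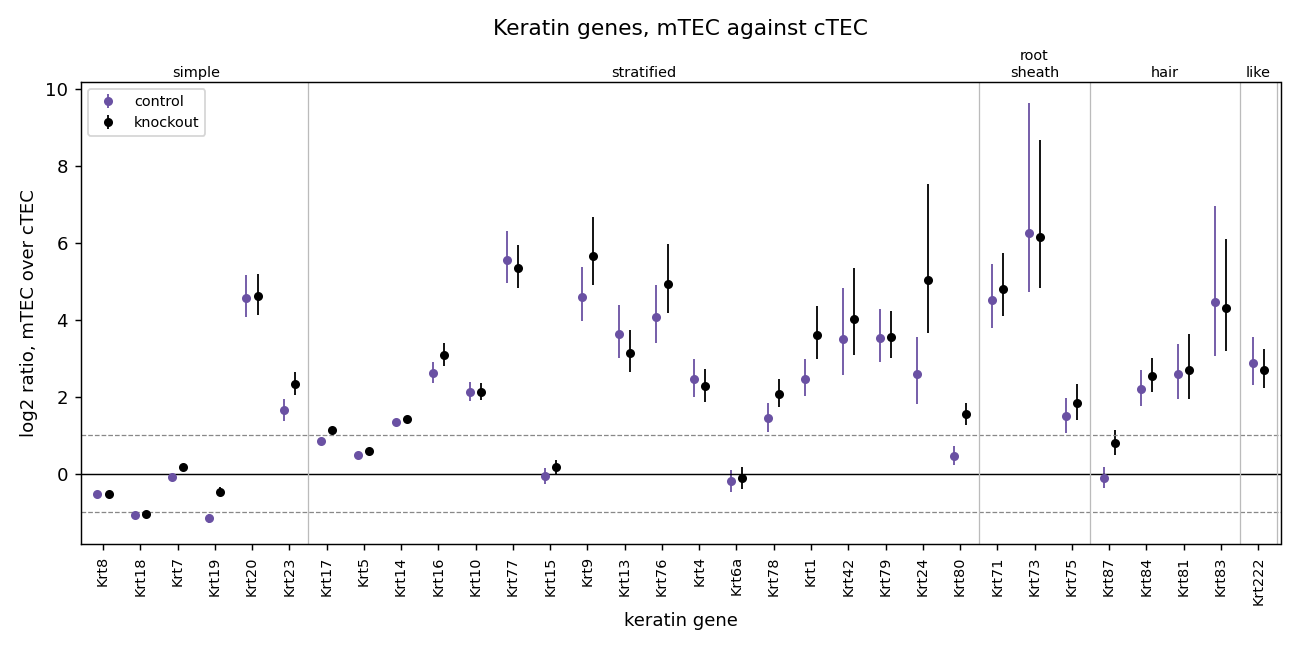
Log2 ratio of mTEC over cTEC for the same 32 genes in control (purple) and knockout (black), with 95% counting intervals and dashed lines at 2-fold. Krt8, Krt18, Krt19 and Krt6a lie below 0 in both genotypes, and Krt73, Krt77, Krt20, Krt9, Krt71, Krt76 and Krt83 lie above 4 in both.

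Ratios within a library compare the RNA of the type I and type II genes of each pair. Protein was not measured, and bulk values do not give the balance within a cell. Type I over type II TPM was 1.37, 1.38, 1.34 and 1.34 for all keratins summed. Krt18 over Krt8 was 0.984 (0.970 to 0.9995) and 1.014 (0.999 to 1.03) in control and knockout mTEC, and 1.45 (1.43 to 1.47) and 1.45 (1.43 to 1.46) in cTEC. Shared windows were 29.7% for Krt8 and 0.72% for Krt18. How reads from them were counted was not given, which bears on the level of Krt18 over Krt8. Krt14 over Krt5 was 0.649 and 0.599 in mTEC and 0.357 and 0.338 in cTEC. So RNA of the type I gene was relatively more abundant in cTEC for the simple pair and in mTEC for the basal pair, with intervals that did not overlap between populations. Krt13 over Krt4 was 1.26 and 1.29 in mTEC and 0.558 and 0.703 in cTEC, and the knockout intervals touched (1.09 to 1.53 and 0.442 to 1.10). Krt10 over Krt1 was 6.16, 7.93, 7.83 and 22.4, the last with 21 reads for Krt1 and an interval of 14.3 to 36.9.

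Position on the chromosomes was not part of the rule. Of the 53 genes, 27 lie on chromosome 11 between 99232761 and 100269871, all on the minus strand, and 26 on chromosome 15 between 101347444 and 102032027, of which 22 are on the minus strand. Krt18 is the type I gene placed in the type II cluster. It lies 23.7 kb beyond Krt8 at the end of that cluster, and both of these neighbours had ratios below 0 in both genotypes. On the near side of Krt8, 42.4 kb away, Krt78 was 2.74-fold and 4.23-fold higher in mTEC. The run from Krt71 to Krt78 on chromosome 15, 10 protein-coding keratin genes long, was called higher in mTEC throughout in both genotypes. Apart from Krt2, which had 0 cTEC reads, its log2 ratios were 1.45 to 6.27 in control and 2.08 to 6.16 in knockout.

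Neighbours on chromosome 11 also differed. Krt19 (100140810 to 100148665), 2.23-fold lower in control mTEC, lies between Krt15, which was level, and Krt9, which had a log2 ratio of 4.59 and is 38.1 kb away. Krt16 and Krt17 are 7.31 kb apart and differed 6.13-fold and 1.81-fold between populations in control.

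**Figure D4:**
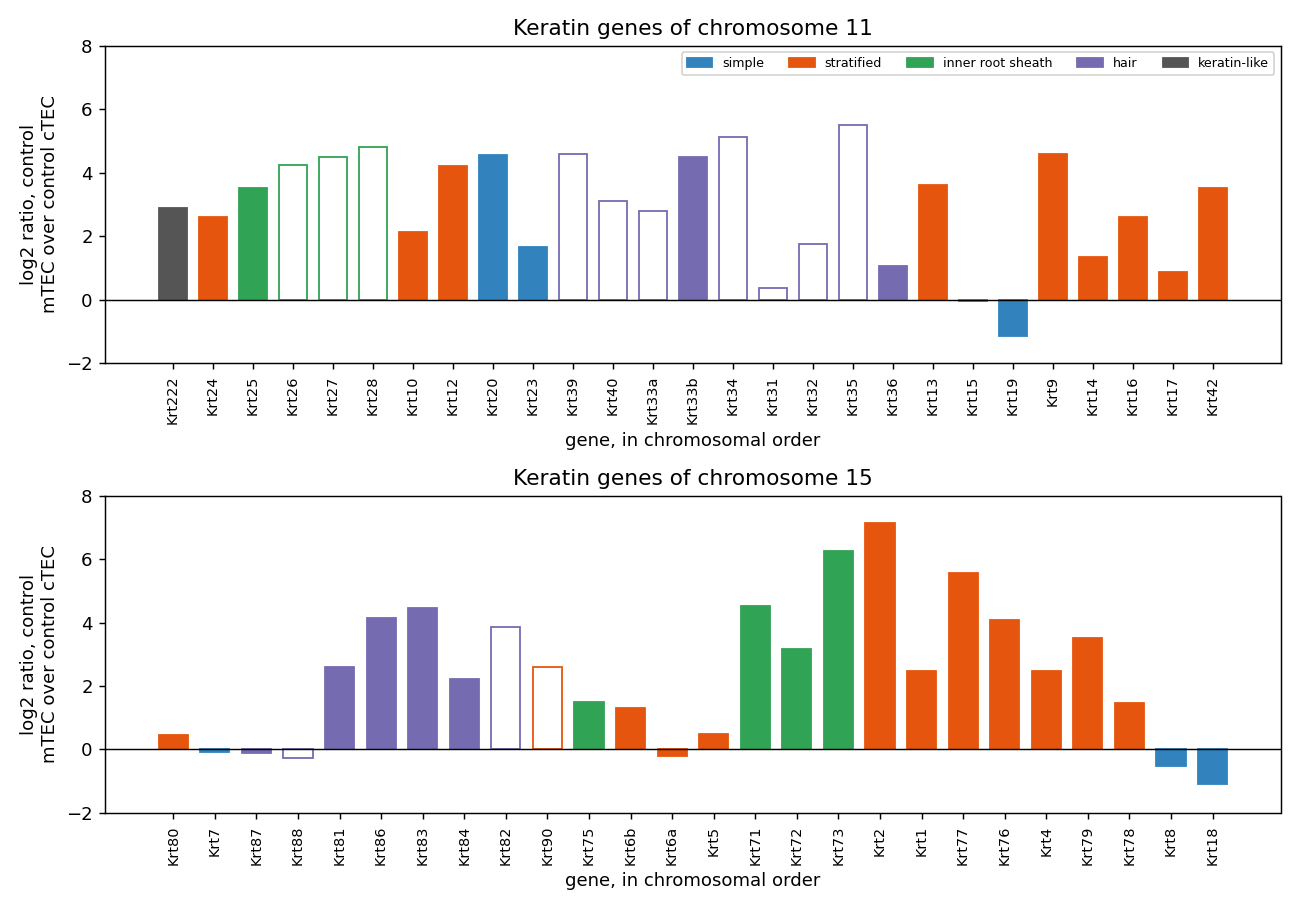
Log2 ratio of control mTEC over control cTEC for each keratin gene in chromosomal order on chromosomes 11 and 15, coloured by class. Open bars have under 50 reads over the pair, and bars of genes at 0 in cTEC (Krt2 among them) depend on the prior count of 0.5. Bars below 0 are Krt15, Krt19, Krt7, Krt87, Krt88, Krt6a, Krt8 and Krt18.

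Promoters of keratins picked for their large population differences are shown next. That of Krt5, which was called in neither genotype (log2 ratios 0.47 and 0.60), is shown beside them. RefSeq windows (GRCm38.p6) were found for 36 of the 53 genes, and 34 of them began within 200 bases of the deposited gene start. The 250 bases before the start are printed 5′ to 3′ on the gene's strand, with any TATAAA in capitals. The positions are chr15:101712906-101713155 for Krt5, chr15:101869706-101869955 for Krt77, chr11:99438154-99438403 for Krt20, chr15:101892921-101893170 for Krt76 and chr15:101802361-101802610 for Krt73, all on the minus strand.
Krt5: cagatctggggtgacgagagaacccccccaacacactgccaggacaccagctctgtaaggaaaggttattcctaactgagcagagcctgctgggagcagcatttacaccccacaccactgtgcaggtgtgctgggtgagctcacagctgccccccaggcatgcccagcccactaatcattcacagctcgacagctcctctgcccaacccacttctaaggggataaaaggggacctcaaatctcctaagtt
Krt77: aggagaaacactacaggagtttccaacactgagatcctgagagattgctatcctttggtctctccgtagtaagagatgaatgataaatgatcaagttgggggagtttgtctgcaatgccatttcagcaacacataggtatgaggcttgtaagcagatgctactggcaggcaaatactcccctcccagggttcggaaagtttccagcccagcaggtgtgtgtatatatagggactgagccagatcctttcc
Krt20: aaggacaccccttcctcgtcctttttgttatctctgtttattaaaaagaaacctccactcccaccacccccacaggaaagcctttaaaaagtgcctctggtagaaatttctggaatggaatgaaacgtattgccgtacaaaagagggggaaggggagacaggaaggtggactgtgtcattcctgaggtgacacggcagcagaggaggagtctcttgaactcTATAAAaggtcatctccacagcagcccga
Krt76: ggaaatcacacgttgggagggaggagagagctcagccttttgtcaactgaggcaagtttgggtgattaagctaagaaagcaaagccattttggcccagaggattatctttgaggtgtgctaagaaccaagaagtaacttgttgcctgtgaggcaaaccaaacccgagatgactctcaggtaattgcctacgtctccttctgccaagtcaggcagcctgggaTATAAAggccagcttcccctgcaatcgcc
Krt73: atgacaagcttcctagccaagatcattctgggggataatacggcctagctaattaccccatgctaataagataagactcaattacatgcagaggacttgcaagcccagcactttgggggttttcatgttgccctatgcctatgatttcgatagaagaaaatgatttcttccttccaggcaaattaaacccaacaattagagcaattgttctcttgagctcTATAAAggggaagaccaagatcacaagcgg

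In Krt20 and Krt76 the motif begins 29 bases before the start, and in Krt73 30 bases before it, while the printed windows of Krt5 and Krt77 do not hold these letters. The TATA box is the element that positions RNA polymerase II at many tissue-specific genes. Only the exact letters TATAAA were counted here. Related runs, such as tatatata near the end of the Krt77 window and gataaaa near that of Krt5, were not, so lacking TATAAA is not lacking a TATA box. Counted on both strands of the whole 300-base windows, TATAAA was present in 19 of the 34 keratin promoters, against 13.6% of all 32851 windows. On the gene's own strand and 15 to 40 bases before the start, it was present in 14 of 34, against 2.11% of all windows: 6 of 8 inner root sheath, 4 of 9 hair, 3 of 13 stratified and 1 of 4 simple keratins. The GC box core GGGCGG, on either strand, was present in 1 of 34, against 35.7% of all windows. CCAAT was present in 14 of 34, against 37.4%. Many of these genes arose by duplication, so their windows are not independent, and a match is not a used site.

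The list of keratin partners and regulators was read next. It holds desmosomal and linker proteins that anchor keratin filaments (Dsp, Jup, Plec, Dst and others), cornified envelope genes and transcription factors of epithelial differentiation. Of 30 measured, 10 were higher and 1 lower in control mTEC, and 10 higher and 2 lower in knockout mTEC, beside the background shares above. Of the desmosomal and linker genes, the plakophilin Pkp2 was the 1 called higher (log2 ratios 1.19 and 1.58). Dst, which ties keratin to hemidesmosomes, was 2.14-fold lower in control mTEC, and Dsp, the main desmosomal linker, had a log2 ratio of −0.56. The members with the largest fitted ratios in control were Hoxc13 (a hair keratin regulator, 12, 5, 0 and 0 reads, too few to call) and the cornified layer genes Flg (109, 106, 13 and 7 reads), Lor (299, 275, 37 and 43 reads) and Ivl (75, 76, 10 and 7 reads). Trp63, which drives basal keratin genes in skin, had 4671, 4205, 8351 and 9696 reads, with log2 ratios of −0.995 in control, just short of the limit, and −1.21 (−1.26 to −1.16) in knockout, where it was called lower. Between genotypes, no gene of the list was called in either population.

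The last question was whether keratin RNA differed without SCD1. In mTEC, 42 keratins had at least 50 reads over the pair and none was called in either direction, beside 0.504% of 16466 genes called higher and 0.431% lower. All but Krt82 (24 and 46 reads, log2 ratio 0.88, 0.15 to 1.67) lay within 1.5-fold of equality. The median log2 ratio of the 42 was 0.11, beside 0.01 over all genes measured. Intervals lay above 0 for 10 keratins and below 0 for 3, beside 11.6% and 10.2% of all genes, and held 0 for 29. At a 1.5-fold limit 1 keratin (Krt82) was called higher, beside 2.13% of genes. With no minimum of reads 3 hair keratins of few reads were called lower (Krt32, Krt39 and Krt40, with 24 and 10, 13 and 3, and 14 and 3 reads), beside 1.43%.

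Among abundant genes in the mTEC pair, Krt18 stood at 0.15 (0.13 to 0.17), Krt8 at 0.11 (0.09 to 0.13) and Krt17 at 0.07 (0.05 to 0.09). Krt14 stood at −0.15 (−0.17 to −0.12) and Krt5 at −0.03 (−0.05 to −0.02). These differences exceeded counting error and were at most 1.11-fold in size, and no replicate gives the spread between mice. Krt10 (805 and 991 reads), Krt23 (474 and 604), Krt9 (522 and 631), Krt78 (245 and 328), Krt80 (318 and 417) and Krt72 (65 and 96) also had intervals above 0. Krt81 (137 and 100 reads) had one below 0, at −0.50 (−0.88 to −0.12).

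In cTEC, 23 keratins could be measured over the pair, and Krt1 was called lower, beside 0.706% of 14445 genes called lower and 0.492% higher. Krt1 had 44 control and 21 knockout reads, a log2 ratio of −1.25 (−2.09 to −0.48). The median log2 ratio of the 23 was −0.20, beside 0.01 over all genes, and 17 of them lay below 0. Intervals lay below 0 for 10 keratins and above 0 for 2 (Krt8 and Krt18), beside 14.5% and 16.3% of all genes, and held 0 for 11. At a 1.5-fold limit 4 keratins were called lower (Krt1, Krt19, Krt80 and Krt87), beside 2.53% of genes. With a minimum of 200 reads none was, beside 0.114%. With no minimum, Krt1, Krt6b (25 and 13 reads) and Krt24 (14 and 3 reads) were called lower and Krt33b (2 and 11 reads) higher, beside 2.50% and 1.81%.

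The basal and simple pairs lay on opposite sides in the cTEC pair. Krt8 stood at 0.12 (0.10 to 0.14) and Krt18 at 0.12 (0.10 to 0.13), while Krt5 stood at −0.16 (−0.18 to −0.14), Krt14 at −0.24 (−0.28 to −0.19) and Krt17 at −0.20 (−0.23 to −0.18). Larger values below 0 were those of Krt19 (1767 and 1313 reads, −0.63, −0.73 to −0.52), Krt87 (210 and 133 reads, −0.85, −1.18 to −0.54) and Krt80 (206 and 142 reads, −0.73, −1.05 to −0.42). As summed reads, stratified keratins were 1.14-fold lower and simple keratins 1.06-fold higher in knockout cTEC, and hair keratins were 1.43-fold lower (341 and 273 reads). The hair sum rested on Krt87 and the simple sum on Krt8 and Krt18. The stratified sum rested on Krt5, Krt14 and Krt17: it went from 4165 to 3666 CPM, and the other 19 stratified keratins from 90.7 to 78.4 CPM. Together those 19 stood at −0.21 (−0.32 to −0.10). Of the 12 stratified keratins measured in this pair, 9 lay below 0 and 3 above 0. Without Krt87 the other 15 hair keratins had 131 and 140 reads, a log2 ratio of −0.10 (−0.46 to 0.25). Without Krt8 and Krt18 the other 4 simple keratins were all below 0 and together stood at −0.31 (−0.35 to −0.27).

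Other lists differed in the same pairs. Endothelium markers (6 genes, none at 0) summed to 14.9 and 24.2 CPM in control and knockout mTEC and to 16.0 and 25.7 CPM in cTEC. Among them Cldn5 was called higher in knockout mTEC (10 and 53 reads) and Cdh5 in knockout cTEC (17 and 53 reads). Those with at least 50 reads over a pair, 4 in mTEC and 3 in cTEC, all stood above 0. Tek, under that minimum in cTEC, went the other way there (29 control and 15 knockout reads), and Kdr was near level (18 and 21 reads). In mTEC, all 9 cTEC markers and 8 of 9 thymocyte markers stood above 0, with median log2 ratios of 0.18 and 0.25. In cTEC, all 9 cTEC markers stood higher in knockout, with a median log2 ratio of 0.33 and summed levels of 18036 and 22520 CPM. All 9 thymocyte markers stood higher (median 0.36, 301 and 387 CPM), and the 7 keratinocyte mimetic markers summed to 77.1 and 71.7 CPM. Among these 7, Sbsn stood at 10.9 and 5.76 CPM, and of the 5 with at least 50 reads over the pair, 2 stood above 0. Whether these shifts bear on the keratin values was not tested.

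**Figure D5:**
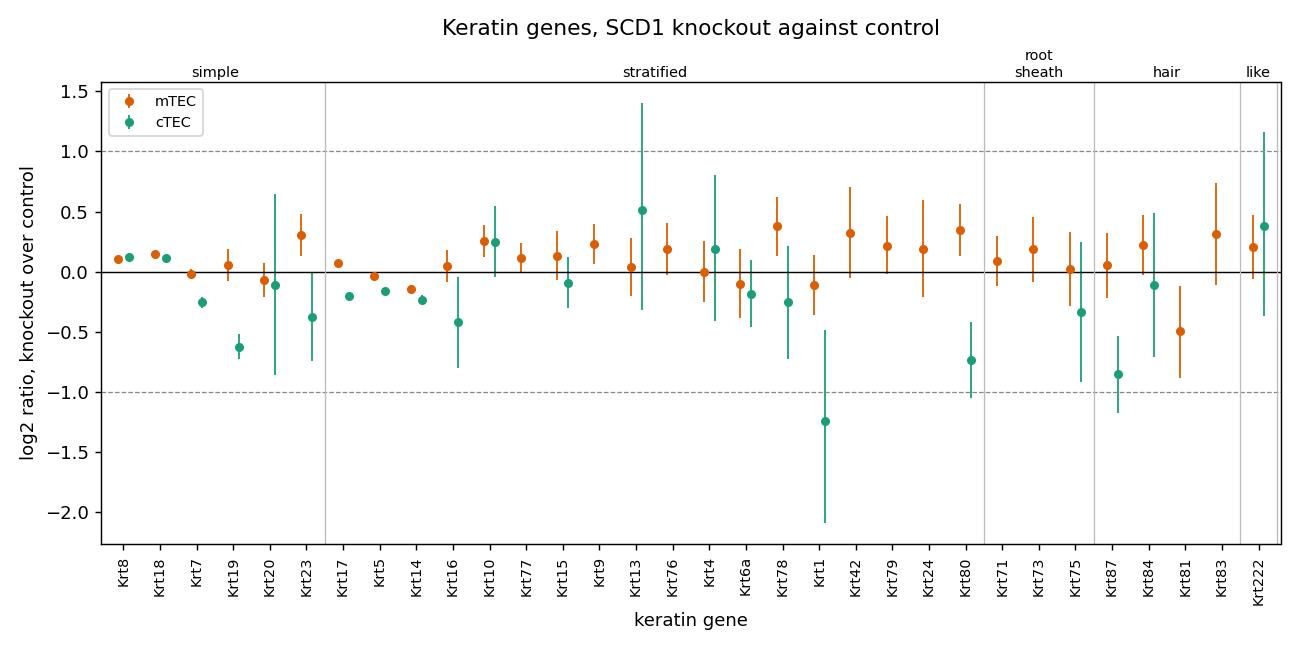
Log2 ratio of knockout over control in mTEC (orange) and cTEC (green) for the 32 genes, with 95% counting intervals and dashed lines at 2-fold. Points are drawn where the pair has at least 50 reads. No orange point passes a dashed line, and Krt1 is the green point below the lower line.

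Of the 23 keratins measured in both genotype comparisons, 11 lay above 0 in mTEC and below 0 in cTEC, 5 above 0 in both, 6 below 0 in both and 1 below 0 in mTEC and above 0 in cTEC. Krt4, the last, stood at −0.0005 in mTEC, and turned to 0.01 with DESeq2 size factors. The same split over all genes is not given here, and the difference between populations in the genotype ratio was not tested.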

How the data were processed

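Bulk RNA sequencing of 4 libraries (total RNA, NEBNext Ultra kit) was described by raw read counts per gene, as deposited by the authors. Per the submitters' processing notes, CASAVA, HISAT2 2.0.5 and featureCounts 1.5.0-p3 were used on the mm10 assembly. The gene models, the strand setting and the treatment of multi-mapping reads were not given in the sources used here, which bears on keratins with near-identical copies. Gene length in bases (other), per the file headers, was used for TPM.

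Counts were scaled over all genes by TMM (edgeR 4.0.16, R 4.3.3), and TPM was computed from counts and deposited gene lengths. Intervals were computed with scipy 1.17.1 and numpy 2.4.6, tables with pandas 2.3.3 in Python 3.11.15, and figures with matplotlib 3.10.9. Log2 ratios had a prior count of 0.5, with exact conditional binomial 95% intervals. Levels have exact Poisson intervals. Because reads may be PCR copies of 1 molecule, intervals and floors describe counting error alone. A difference was called at 50 reads over a pair, 2-fold and an interval excluding 0, and the procedure was tested on simulated data. Each group has 1 library, so no p-value was computed for a pair. An additive population and genotype fit over the 4 libraries (edgeR quasi-likelihood test, genes kept by filterByExpr at a count of 10, 1 residual degree of freedom) was also tested on simulated data. Totals per library were 15740383 to 18151725 reads, and 3 counts correspond to 0.171 to 0.196 CPM.

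Keratins with at least 200 reads over the libraries are given one by one, and others by class, or by name where called. Of the partner list, genes called between genotypes and the 4 with the largest control ratios between populations are named by that rule. A few further genes were named after their values were seen (among the partners Dst, Dsp and Trp63). The members and lists were chosen with earlier results of these data known. Shared sequence is the percentage of 50-base windows of the longest GENCODE M21 transcript found in another gene, on either strand. Counts of the 10 genes with 25% or more are taken as uncertain (Krt8, Krt12, Krt16, Krt31, Krt34, Krt6a, Krt6b, Krt81, Krt86 and Krt87). Alternatives were DESeq2 1.42.0 size factors, total count scaling, other read minimums, a 1.5-fold limit, a prior count of 2, transcript lengths, leaving out genes with shared sequence, and the additive fit, the last 2 chosen after seeing the data.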

Additional observations from a re-analysis of the deposited data

Results flagged for a closer look

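For 3 keratins the genotype ratio had opposite signs in mTEC and cTEC, each with a counting interval that excluded equality. Krt80 stood at 0.35 (0.13 to 0.56) in mTEC and −0.73 (−1.05 to −0.42) in cTEC, a difference of 1.08 on the log2 scale. Krt23 stood at 0.31 (0.13 to 0.48) and −0.38 (−0.75 to −0.01), a difference of 0.68. Krt17 stood at 0.07 (0.05 to 0.09) and −0.20 (−0.23 to −0.18), a difference of 0.27. The share of all genes with such opposite signs is not given here, so the 3 cannot be set against it. Over all genes measured, intervals lay above and below 0 for 11.6% and 10.2% in mTEC and for 16.3% and 14.5% in cTEC. With 1 library per group the differences were not tested.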

How the results depend on the processing

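The labels give no replicate numbers, and each group has 1 library, so none could be left out of a pair. The additive fit over the 4 libraries, in which genotype is a block for population and population for genotype, called 40 keratins higher and 3 lower in mTEC, and 0 higher and 2 lower in knockout. It tests other quantities than a pair does, with no 2-fold limit. Of 128 log2 ratios (32 genes, 4 comparisons), 124 stayed within their counting interval with DESeq2 size factors, 116 with total count scaling and 128 with a prior count of 2. Signs changed for 3, none of them called: Krt15 and Krt7 between populations in control (total count) and Krt4 between genotypes in mTEC (DESeq2 size factors). Scaling by total count left 1 keratin called lower in control mTEC and 0 in knockout mTEC. With a minimum of 200 reads, 18 (control) and 20 (knockout) were called higher in mTEC, and between genotypes in cTEC 0 were called lower. With no minimum, 3 were called lower in knockout mTEC against control mTEC, and 1 higher and 3 lower in knockout cTEC. At 1.5-fold, 1 was called higher in knockout mTEC and 4 lower in knockout cTEC. Leaving out the 10 genes with 25% or more shared windows gave 25 and 29 called higher in mTEC.

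With the longest annotated transcript in place of the deposited length, simple keratins summed to 6025 and 6390 TPM in control and knockout mTEC and 10207 and 10789 in cTEC. Stratified keratins summed to 9258, 8973, 5137 and 4460, hair keratins to 73.2, 69.4, 25.1 and 17.2, and inner root sheath keratins to 56.9 and 62.5 in mTEC. Krt14 over Krt5 became 0.672, 0.621, 0.369 and 0.350, and Krt10 over Krt1 4.41 and 5.68 in mTEC. These moves follow from the lengths. Keratins with few cTEC reads are limited by depth: in the genotype comparison 30 of 53 had under 50 reads over the cTEC pair.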

Other observations

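Keratin-associated proteins, the matrix proteins between hair keratins, were almost unread in these libraries. Of 57 protein-coding genes of that family, 23 and 21 had a read in control and knockout mTEC and 4 and 5 in cTEC, and the family summed to 63, 90, 26 and 31 reads. The 16 hair keratin genes, by comparison, summed to 1061, 1090, 341 and 273 reads. Krtap17-1, with 14, 28, 5 and 5 reads, had the most reads of the family over the 4 libraries. Krt74, a pseudogene in this annotation and so outside the 53 genes, had 9, 9, 4 and 0 reads.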
